A study of Caenorhabditis elegans with 2 samples.

Results

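The genes described here are 10 transcriptional regulators of the seam cells and epidermis of Caenorhabditis elegans, among 19973 nuclear protein-coding genes, and the measurement is the binding of the Hox protein MAB-5 around them. They are listed by name rather than by a signal threshold, though the list was drawn up with earlier results of these data known, and all 10 were found in the Ensembl gene models. They comprise the RUNX gene rnt-1 and its partner bro-1, the GATA factor genes elt-1, elt-3, elt-6 and egl-18, the engrailed-type gene ceh-16, the hairy-type gene lin-22, the zinc finger gene lin-26 and the PRDM1-type gene blmp-1. Each gene was given a window from 5000 bp upstream of its start to its end, and a peak was counted for a gene when its summit lay in that window.

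Seam cells are lateral epidermal cells that divide like stem cells during larval life, while the rest of the epidermis forms a syncytium that secretes the cuticle. GATA factors and LIN-26 establish and maintain epidermal identity, CEH-16 and the EGL-18 and ELT-6 pair keep seam cells distinct from their neighbours, and RNT-1 with BRO-1 promotes their divisions. MAB-5 is the Antennapedia-type Hox protein of the posterior body, where it gives seam cells and other lineages their regional fates.

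The single group was mixed-stage embryos of both sexes from strain OP27, whose labelled genotype is unc-119(ed3) III with the integrated transgene wgIs27 carrying an eGFP fusion of mab-5, assayed as 2 biological replicates. Every library carried the same mutation and transgene, no group without the fusion was analysed here, and the control alignment was not analysed here. Whole embryos were used, so cells with and without MAB-5 were measured together and binding in the epidermis could not be separated from binding elsewhere. The antibody is labelled mab-5 in one field and the precipitation is described as against the eGFP fusion in another.

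The authors deposited a relaxed list of 30000 peaks, background included, for replicate 1, for replicate 2 and for the pooled replicates, and a thresholded list of 502 peaks, 481 of them nuclear. The signal value is the authors' enrichment measure on a scale not given in the sources used here, so it was read only within a list. It ran from 34.3 to 408 in the thresholded list, whose peaks were the 502 strongest of the pooled list. Median signals were 11.2 in the pooled list, 4.96 in replicate 1 and 8.32 in replicate 2. Read depth is unknown, the replicates form 1 group, and no test between groups was possible.

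One of the 10 regulators, rnt-1, held a thresholded MAB-5 peak, and the other 9 held none. This is 10% of the members, against 4.36% of all nuclear protein-coding genes (870 of 19973). Relaxed peaks were found at all 10 members, where 77.7% of all genes had one in the pooled list, 84.6% in replicate 1 and 80.6% in replicate 2. The members' median number of pooled peaks was 3.5, against 2 for all genes, and their median window was 9.48 kb, against 7.03 kb. Longer windows hold more peaks, and the share of genes with a thresholded peak was 3.69% for windows of up to 7500 bp and 8.84% for those over 15000 bp. Per kb of window the medians were 0.394 pooled peaks for the members and 0.269 for all genes.

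**Figure D1:**
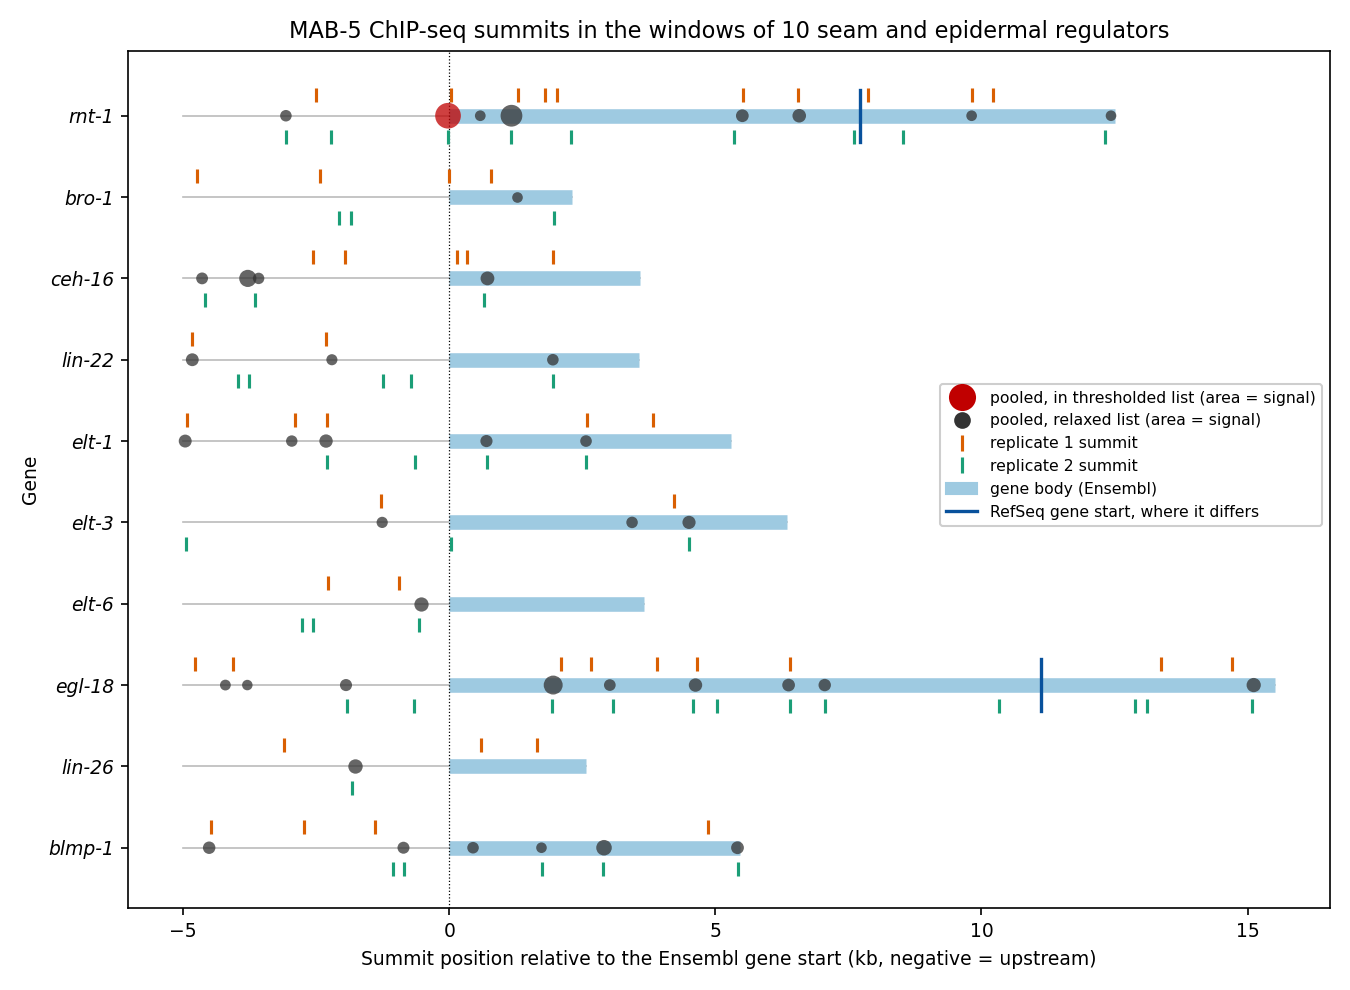
Summits in the windows of the 10 regulators, by distance from the Ensembl gene start in kb, with all genes drawn left to right. Circles are pooled peaks with area in proportion to signal, ticks above and below the line are replicate 1 and replicate 2 summits, light bars are gene bodies and dark vertical bars mark a RefSeq start more than 100 bp from the Ensembl one; the single thresholded peak, signal 47.5, sits at the start of rnt-1.

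At rnt-1, which encodes the only RUNX transcription factor of the worm, MAB-5 signal was concentrated at the 5′ end of the long gene model. The gene spans chromosome I from 5776093 to 5788611 on the plus strand (WBGene00004393, WBcel235), and its window held 8 pooled peaks. The thresholded peak had its summit at position 5776071, between genes, 22 bp upstream of the start of transcript B0414.2.2. The upstream neighbour hil-5, a linker histone gene on the same strand, ends 483 bp before rnt-1 begins. The signal of this peak was 47.5 in the pooled list, rank 197 of 30000, with a deposited q-value of 0.0137.

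The replicates placed this site very differently. In replicate 2 its signal was 45.4, rank 83, whereas in replicate 1 it was 7.59, rank 4688, with a q-value of 0.0577. The 481 nuclear thresholded peaks had a median rank of 380.5 in replicate 1 and 277 in replicate 2. Among them, 45 ranked beyond 4000 in replicate 1 and a further 19 had no replicate 1 peak, so the rnt-1 start site belonged to a minority of the list.

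A second rnt-1 site, in an intron 1170 bp downstream of the gene start, was high in both replicates. Its signal was 34.2 in the pooled list, rank 511, just under the lowest thresholded signal of 34.3. It ranked 295 in replicate 1 with a signal of 16.6 and 342 in replicate 2 with a signal of 27.4, with q-values of 0.00829 and 0.00797. Of 192 nuclear pooled peaks that lay inside a peak ranked within the first 502 of both replicates, 189 were in the thresholded list and 3 were not, and this intronic site was one of the 3. The other 6 pooled peaks of rnt-1 had signals from 8.13 to 13.3.

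Both rnt-1 sites depend on which gene model is used. Ensembl release 115 starts rnt-1 7718 bp upstream of the RefSeq start, at 5783811, so both sites lie before the RefSeq window opens. With the RefSeq model the strongest pooled peak of rnt-1 had a signal of 13.3, at the 53.2nd percentile of all genes, in place of the 98.3rd. Among the 887 genes with windows within 20% of its length, rnt-1 stood at the 96.8th percentile and 6.99% had a thresholded peak.

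The rnt-1 call was made again with other definitions of a gene's peaks. It was kept with the window cut to 2000 bp upstream and 500 bp downstream of the start (2.48% of all genes called), extended to 10000 bp upstream (6.57%), or with each peak given only to the nearest start (1.95%). It was also kept in the stronger part of the thresholded list (2.10%) and in the 1000 strongest pooled peaks (8.60%). The start site, 22 bp upstream of rnt-1 at rank 197, lies inside all of these windows and cuts, so these settings could not have dropped the call. The call was kept as well in as many of the strongest peaks of replicate 1 (4.36%) or of replicate 2 (4.18%) as the thresholded list holds. In replicate 1 the call rests on the intronic site, since the start site ranked 4688 there. No member was called when only the gene body was read (0.571%) or with RefSeq models (4.32%).

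The partner gene bro-1 encodes the CBF-beta-type cofactor that RNT-1 binds, and its strongest pooled peak was near the bottom of the list. Its window on chromosome I (gene 5186926 to 5189240, WBGene00000272) held 1 pooled peak, in an intron, with a signal of 8.14, rank 28674 of 30000. The q-value of that peak was 0.804. Neither replicate had a peak over that summit. Their own strongest peaks lay upstream in introns of the neighbouring gene slx-1, with a signal of 6.83, rank 6578, in replicate 1 and of 14.0, rank 3181, in replicate 2, and the 2 summits were 586 bp apart. The nearest thresholded summit was 57373 bp from the bro-1 start.

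**Figure D2:**
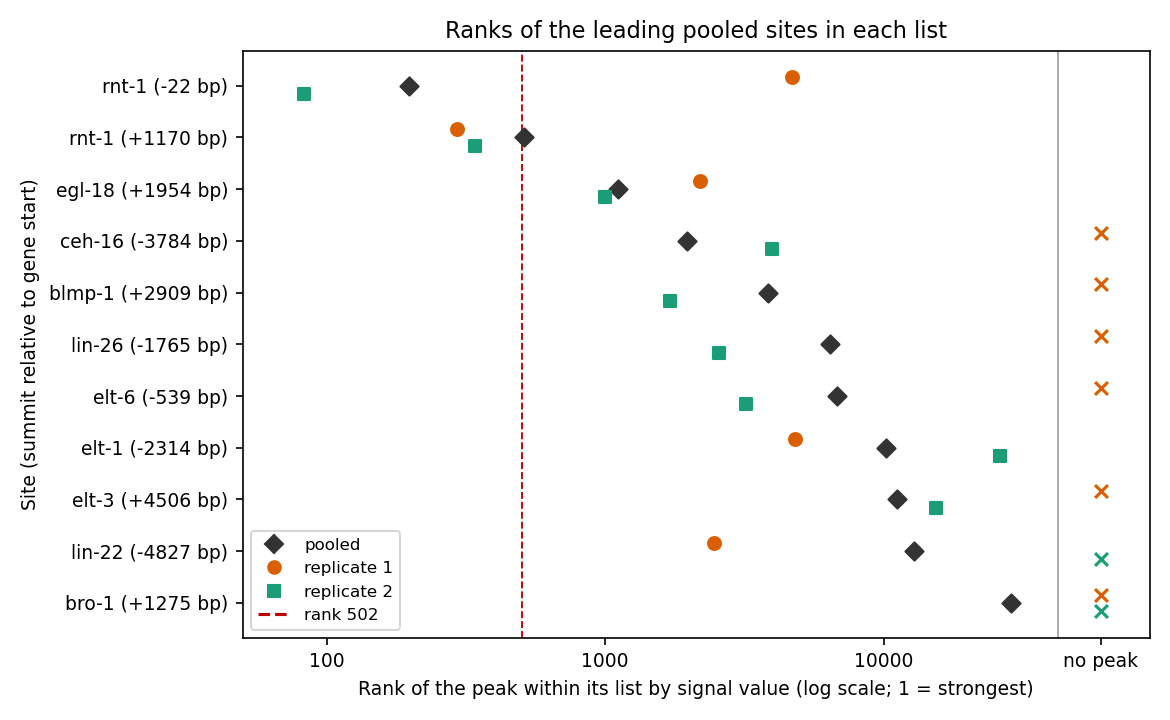
Rank of the strongest pooled site of each member, and of the second rnt-1 site, in the pooled, replicate 1 and replicate 2 lists, on a log axis with rank 1 as the strongest; crosses at the right mark a list with no peak over the summit and the dashed line marks rank 502. The second rnt-1 site, at ranks 295 and 342, is left of the line in both replicates, while the first is left of it in replicate 2 alone.

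Among the 4 epidermal GATA factor genes, egl-18 carried the strongest pooled peak and none had a thresholded peak. EGL-18 and ELT-6 are paired GATA factors encoded by adjacent genes, and both act in seam cells. egl-18 (chromosome IV, 1902322 to 1917840, plus strand, WBGene00001186) had 9 pooled peaks in a window of 20.5 kb. The strongest lay in an intron of the long transcript, 1954 bp downstream of the Ensembl start, with a signal of 25.9 and rank 1110 in the pooled list. It had a signal of 9.46, rank 2187, in replicate 1 and of 19.5, rank 1000, in replicate 2, and the deposited q-values were 0.0130 and 0.0105 in these replicates and 0.0410 for the pooled peak. The replicate 1 and replicate 2 summits lay 2093 and 1932 bp downstream of the start. The replicate 1 peak covered the pooled summit but not the replicate 2 summit. As at rnt-1, this site falls outside the RefSeq window, since that model starts 11124 bp downstream of the Ensembl start. With that model the strongest pooled signal of egl-18 was 14.6.

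The elt-6 gene (1917977 to 1921643, plus strand, WBGene00001253) starts 137 bp after egl-18 ends, so most of its upstream window lies within egl-18. Its only pooled peak is counted for both genes. That peak had a signal of 14.6, rank 6791, and a q-value of 0.486, and its summit at 1917438 lay in the 3′ UTR of egl-18. Replicate 2 had a peak there with a signal of 13.9, rank 3212, and a q-value of 0.0886. Replicate 1 had none there, but held a separate peak in an egl-18 intron 947 bp upstream of elt-6, with a signal of 11.3, rank 1139, and a q-value of 0.00829. The strongest summits of the replicates in the elt-6 window were thus 373 bp apart.

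ELT-1, the GATA factor that specifies epidermal fate in the early embryo, and ELT-3, a GATA factor of the differentiating epidermis outside the seam, stood near the middle of all genes by their strongest pooled peaks, at the 50.8th and 48.3rd percentiles. elt-1 (chromosome IV, 9614995 to 9620280, WBGene00001249) had 5 pooled peaks with signals from 9.40 to 12.9. Its strongest, between genes 2314 bp upstream of the start, ranked 10210 in the pooled list, 4801 in replicate 1 and 26086 in replicate 2. The q-values there were 0.577, 0.0607 and 0.714. elt-3 (chromosome X, 13934874 to 13941216, WBGene00001251) had 3, of which the strongest had a signal of 12.5, rank 11151, and a q-value of 0.602, in a coding exon. No replicate 1 peak lay over that summit, though a replicate 1 peak overlapped the edge of the pooled peak. In replicate 2 the site ranked 15365.

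At ceh-16, lin-22 and lin-26 the strongest pooled peak lay upstream of the gene and was covered by a peak of 1 replicate only. CEH-16 is an engrailed-type homeodomain protein required for seam identity, and its gene (chromosome III, 8622735 to 8626314, WBGene00000439) had 4 pooled peaks. The strongest, 3784 bp upstream, had a signal of 21.3, rank 1969, and a q-value of 0.134. It ranked 3983 in replicate 2 with a signal of 13.1 and had no replicate 1 peak. Its nearest gene start was not that of ceh-16 but that of C13G5.2, 489 bp away. Replicate 1 had its own strongest ceh-16 peak 1964 bp upstream, with a signal of 8.32 and a q-value of 0.0313.

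LIN-22, a hairy-type repressor that restrains neuroblast formation from seam cells, showed the reverse pattern of replicates. Its gene (chromosome IV, 3019738 to 3023304, WBGene00003008) had 3 pooled peaks, of which the strongest, 4827 bp upstream, had a signal of 11.9, rank 12817. The q-value of that pooled peak was 0.631. In replicate 1 this site had a signal of 9.16, rank 2463, and a q-value of 0.0160, and replicate 2 had no peak there. The nearest gene start to it was that of vrp-1, 2324 bp away. LIN-26, a zinc finger protein that maintains epidermal identity, has a gene (chromosome II, 7682198 to 7684764, WBGene00003012) whose start lies inside the end of the gene lir-1. Its single pooled peak lay in a lir-1 intron 1765 bp upstream, with a signal of 14.9, rank 6416, and a q-value of 0.467. Replicate 2 ranked it 2552 with a signal of 14.9 and a q-value of 0.0598, and replicate 1 had no peak there.

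The 201 bp centred on the strongest summit are shown for 4 of these genes, to set sites with motif matches beside sites without. Sequences are of WBcel235 on the plus strand, 5′ to 3′, from RefSeq, and capitals mark a match on either strand to any of the 5 motifs searched, which are spelled out with the shares further on. The matches here are to TGATNNAT, the site type of a Hox protein with a PBC cofactor, and to the GATA factor motif TGATAA, and one stretch of bases can match both. The ceh-16 site at chrIII:8618851-8619051 and the lin-22 site at chrIV:3014811-3015011 each held 2 TGATNNAT matches, and the ceh-16 site also held 1 TGATAA. The egl-18 site at chrIV:1904176-1904376 and the lin-26 site at chrII:7680333-7680533 held none. The egl-18 site is 51.2% GC with a run of 13 identical bases, against 28.9% GC at the ceh-16 site.
ceh-16: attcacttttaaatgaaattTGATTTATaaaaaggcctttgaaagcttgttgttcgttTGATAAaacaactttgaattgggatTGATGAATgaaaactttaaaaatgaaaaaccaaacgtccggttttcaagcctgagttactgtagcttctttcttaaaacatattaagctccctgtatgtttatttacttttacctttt
lin-22: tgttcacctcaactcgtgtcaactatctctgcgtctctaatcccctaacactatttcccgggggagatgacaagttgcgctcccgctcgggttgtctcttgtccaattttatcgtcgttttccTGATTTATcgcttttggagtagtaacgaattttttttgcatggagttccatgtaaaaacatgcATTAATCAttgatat
egl-18: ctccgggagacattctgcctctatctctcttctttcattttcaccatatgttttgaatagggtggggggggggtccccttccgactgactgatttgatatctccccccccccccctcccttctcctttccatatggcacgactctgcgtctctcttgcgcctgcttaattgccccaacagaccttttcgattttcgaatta
lin-26: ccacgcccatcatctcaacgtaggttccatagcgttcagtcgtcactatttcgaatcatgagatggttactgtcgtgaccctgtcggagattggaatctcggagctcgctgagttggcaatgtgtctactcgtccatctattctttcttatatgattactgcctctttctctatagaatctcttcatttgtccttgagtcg

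BLMP-1 is a PRDM1-type zinc finger protein that acts in epidermal development and its timing, and the strongest pooled peak of its gene lay inside the gene. blmp-1 (chromosome I, 10409302 to 10414773, plus strand, WBGene00003847) held 6 pooled peaks. The strongest, in an intron 2909 bp downstream of the start, had a signal of 17.4, rank 3841, and a q-value of 0.315. Replicate 2 ranked it 1713 with a signal of 16.6 and a q-value of 0.0301, and replicate 1 had no peak over it. The strongest replicate 1 peak of blmp-1, 2720 bp upstream, had a signal of 4.91, rank 15324.

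To compare lists whose signal scales differ, each gene was placed by its strongest peak as a percentile among all nuclear protein-coding genes, in each replicate apart. rnt-1 stood highest, at 98.4 ± 1.47 (SD, n = 2), and egl-18 followed at 91.2 ± 0.954. elt-6 stood at 84.2 ± 9.03, ceh-16 at 74.9 ± 1.40 and lin-26 at 71.5 ± 14.0. bro-1 stood at 69.6 ± 11.8, against 23.3 in the pooled list, the lowest of the members there, and elt-1 stood at 61.1 ± 11.3. The widest spreads were those of blmp-1, 60.7 ± 36.7, and lin-22, 53.3 ± 40.1, and elt-3 stood lowest by replicate mean at 34.3 ± 4.85. Between neighbours in this order, the replicate ranges were separate for rnt-1 over egl-18 and for elt-6 over ceh-16, and they met or overlapped for the others. egl-18 and elt-6 share their strongest replicate 1 peak and so have the same replicate 1 percentile, 90.6. Each percentile takes the strongest peak of its own replicate, which need not be the same site. The strongest summits of the replicates lay 1313 bp apart at rnt-1, 12776 bp at egl-18 and 1681 bp at ceh-16. A small SD here therefore does not mean a shared site.

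Across the 10 members the median percentile was 62.7 for pooled peaks, 72.5 for replicate 1 peaks and 77.9 for replicate 2 peaks, where the median over all genes is about 50 by construction. The median strongest signal was 7.93 for the members and 5.98 for all genes in replicate 1, 13.9 and 9.71 in replicate 2, and 14.8 and 12.8 in the pooled list. Window length moves single percentiles. Ranked in the pooled list among genes with similar windows, egl-18 stood at 80.3 and elt-1 at 38.8, against 90.5 and 50.8 among all genes. The members' median on that scale was 63.3.

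**Figure D3:**
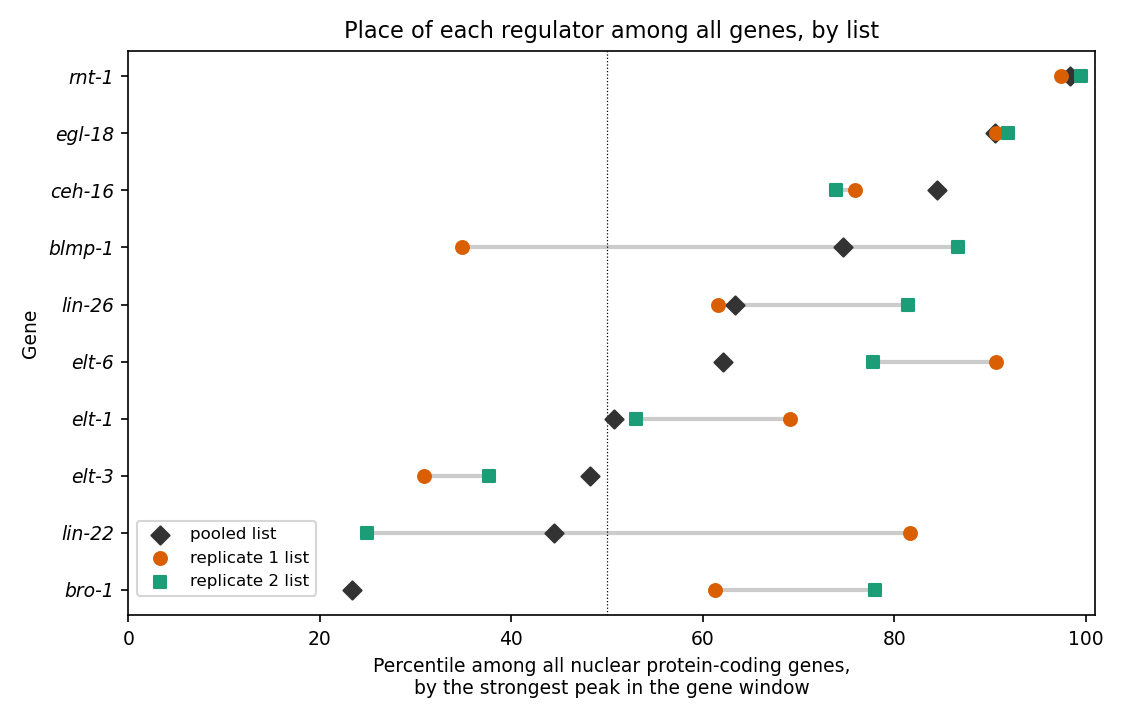
Percentile of each member among 19973 nuclear protein-coding genes by its strongest peak, in the pooled list (diamonds), replicate 1 (circles) and replicate 2 (squares), with a bar joining the replicates and a dotted line at the 50th percentile. rnt-1 and egl-18 lie above 90 in all 3 lists, while lin-22 (81.7 and 24.9) and blmp-1 (34.8 and 86.7) differ most between replicate 1 and replicate 2.

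Calls were also made by the deposited q-value, taken at 0.05 or less. In the pooled list rnt-1 and egl-18 had such a peak, and 10% of all genes did. The q-values of the members' pooled peaks follow the order of their signal, so this is a less strict cut on the same ranking. The same 2 members had a pooled peak lying in peaks at or below this q-value in both replicates, as did 6.82% of all genes. In replicate 1 alone the members were rnt-1, ceh-16, lin-22, elt-6 and egl-18, with 28.7% of all genes. In replicate 2 alone they were rnt-1, egl-18 and blmp-1, with 17.5% of all genes.

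Sites shared by the replicates made up about the same part of the members' peaks as of all peaks. The 10 windows held 40 different pooled peaks, of which 17 lay in a replicate 1 peak, 27 in a replicate 2 peak, 9 in both and 5 in neither. The share in both was 22.5%, against 19.9% of all 29978 nuclear pooled peaks. These 9 sites belonged to rnt-1, elt-1 and egl-18, with 3 each, and the other 7 members had none. The 3 members are 30% of 10, against 35.1% of all genes with such a site. At least 3 such sites, a number chosen after the values were seen, were found at 2.91% of all genes. Among genes with windows of similar length, at least 3 were found at 12% for rnt-1, 4.04% for elt-1 and 19.4% for egl-18. The strongest replicate 1 and replicate 2 summits of a member lay apart by a median of 1297.5 bp, with a range of 295 to 12776 bp, against a median of 1598.5 bp over 14442 genes with peaks in both. They lay within 200 bp of each other at 0 of 10 members, against 2749 of those 14442 genes (19.0%).

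Of the 40 pooled summits of the members, 19 were intronic (47.5%, against 39.4% of all 29978 nuclear pooled peaks) and 14 intergenic (35%, against 43.6%). Another 4 lay in a 3′ UTR (10%, against 4.28%) and 3 in a coding exon (7.5%, against 10.9%). The members' windows include whole gene bodies, while the pooled list covers all nuclear sequence. Among the 40, only the start and 1170 bp intronic sites of rnt-1 and the strongest egl-18 site had pooled q-values of at most 0.05. The feature and motif shares thus rest mainly on peaks above that value, from a list that includes background. The Hox and PBC motif TGATNNAT was found, on either strand, within 100 bp of 8 of the 40 summits, 20% (exact 95% interval 9.05 to 35.6), against 15.3% of all nuclear pooled peaks and 28.7% of the nuclear thresholded peaks. The thresholded rnt-1 site held none of the 5 motifs, while its intronic site at 1170 bp held 2 TGATNNAT matches. The blmp-1 intronic site at 2909 bp also held 2 TGATNNAT matches.

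The GATA motif TGATAA was found at 11 of the 40 summits, 27.5% (14.6 to 43.9), against 17.8% of all nuclear pooled peaks and 14.1% of the thresholded ones. These were spread over 7 genes, which were rnt-1, ceh-16, elt-1, elt-3, elt-6, egl-18 and blmp-1. The elt-6 site is the one also counted for egl-18. The strongest pooled summits of elt-1, elt-3 and egl-18 held no TGATAA. The homeodomain core TAATTA was found at 17.5% of the member summits, against 11.6% of all pooled summits. The Meis-type motif TGACAG was found at 7.5% of them, against 6.51%. The RUNX motif ACCACA was found at 5% of them, against 6.66%. In each of the 5 motifs the members' interval included the share of all pooled peaks. The mean GC content of the 201 bp was 35.8% at member sites, 33.1% over the pooled list and 41.7% over the thresholded list, and its part in these shares was not tested. The intervals cover counting error only.

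**Figure D4:**
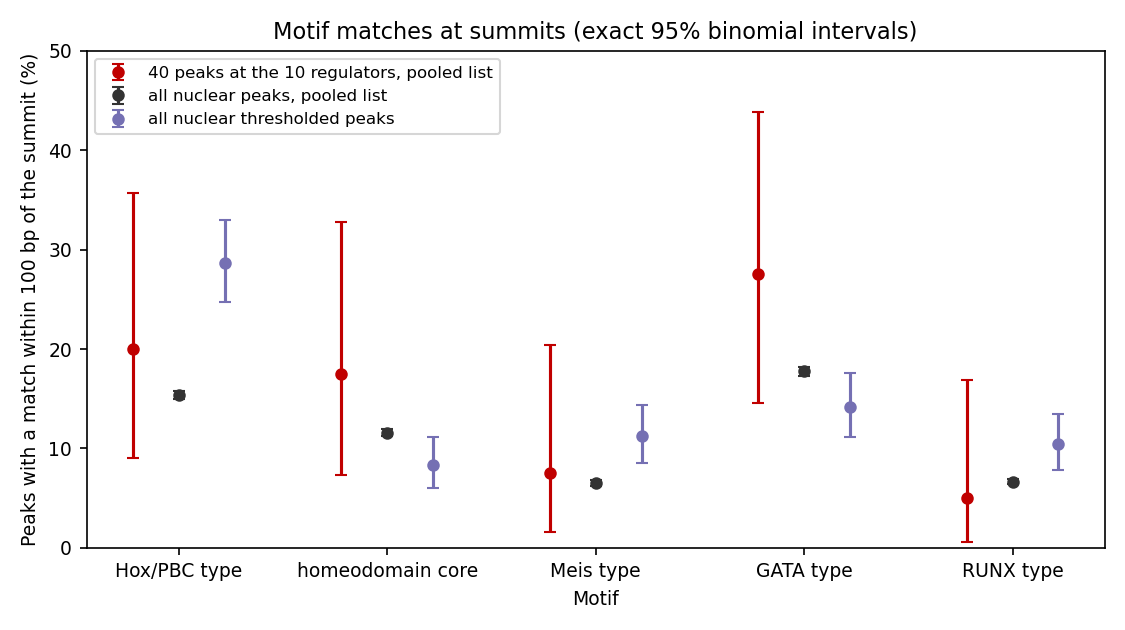
Percentage of peaks with a motif match within 100 bp of the summit, for the 40 member peaks, all 29978 nuclear pooled peaks and the 481 nuclear thresholded peaks, with exact 95% binomial intervals. The members' shares, from 5% for the RUNX type to 27.5% for the GATA type, have wide intervals that include the pooled share for each motif.

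Another 4 lists of genes from the same tissue or protein family were read in the same windows, against the same 4.36% of all genes with a thresholded peak. Of 7 other GATA factor genes, which act in the endoderm and its precursors, none held a thresholded peak, and the strongest pooled signal was 14.8, at elt-7. Of 13 other epidermal and heterochronic regulators, lin-28 held one, 811 bp inside the gene with a signal of 39.7. lin-28 encodes an RNA-binding protein that times larval seam divisions. The median pooled percentile was 73.5 for the 13 regulators and 35.8 for the 7 GATA genes.

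Among 9 genes of the Wnt pathway that directs asymmetric seam divisions, sys-1 and lin-17 held thresholded peaks and the median pooled percentile was 79.9. lin-17, a Frizzled-type receptor gene, had 2 summits, 553 and 3540 bp upstream, with signals of 74.5 and 74.0. The second of these lay nearer to the start of F32B5.1, at 2923 bp. The sys-1 summit, at a beta-catenin gene, had a signal of 77.2 and lay 4222 bp upstream, nearer to the histone gene his-68 at 116 bp. Of 15 epidermal effector genes, mostly of cell fusion, junctions and cuticle but also holding the proneural factor gene lin-32, the cadherin gene hmr-1 held one, with a signal of 36.4. That summit lay 28819 bp inside hmr-1 and 17892 bp from the nearest gene start, that of Y52B11B.1. The median percentile of the 15 was 46.7 for pooled peaks, 65.9 in replicate 1 and 46.8 in replicate 2.

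The other lists were placed by replicate as well. The 7 GATA genes had medians of 27.5 and 43.8 in replicates 1 and 2, the 13 epidermal and heterochronic regulators 59.3 and 76.3, and the 9 Wnt pathway genes 88.1 and 87.6. Median windows were 6.29 kb for the GATA genes, 11.6 kb for the 13 regulators, 10.4 kb for the Wnt pathway genes and 8.20 kb for the effectors, so the lists differ in window length as well as in signal.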

How the data were processed

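Chromatin immunoprecipitation and sequencing of an eGFP fusion of MAB-5 was deposited for 2 biological replicates of 1 group. Per the file headers, the authors called relaxed peak lists on each replicate and on the pooled replicates with a control alignment, and derived the thresholded list from these by the irreproducible discovery rate. For the aligner and the peak caller, the tool and version are not stated in any source used here. The deposited signal value, the authors' own enrichment measure, served to order peaks inside each list. Q-values were computed from the −log10 values that the authors deposited. The ce11 lists were used, and the ce10 lists were not used here. The pooled list contains both replicates, so its values are not independent of theirs.

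Genes and features came from Ensembl release 115 and sequence from RefSeq, both of WBcel235. A summit was the peak start plus its deposited offset, and shared means that the pooled summit lies in a replicate peak. Percentiles are the share of genes with a lower strongest signal, with ties halved and genes without a peak set to 0. Percentiles within replicates are given as mean ± SD. Intervals are exact binomial (Clopper-Pearson) at 95%. No test was made, since the members were chosen by name and the samples form 1 group. Read depth is unknown, so no interval from reads can be given. The members and lists were chosen with earlier results of these data known. All 10 members were named; of each other list, genes with a thresholded peak or, with none, the strongest member, together with the gene start nearest to a named peak. The neighbouring genes hil-5, slx-1 and lir-1 were named, and the limits of rank 4000 and 3 shared sites chosen, after the values were seen. Alternatives were other windows, assignments, thresholds, overlaps, motif distances and gene models, and each replicate alone. Counting and motif search were tested on simulated data. Python 3.11.15, numpy 2.4.6, pandas 2.3.3, scipy 1.17.1 and matplotlib 3.10.9 were used.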

Additional observations from a re-analysis of the deposited data

How the results depend on the processing

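The count of members with a thresholded peak, 1 (rnt-1), was also 1 in the other windows and lists given beside rnt-1, apart from those named next. It was 0 for the gene body alone (0.571% of all genes) and 0 with RefSeq gene models (4.32%), because the summit lies upstream of the start or of the RefSeq window. With q-values of at most 0.05 it was 2 in the pooled list and 2 where both replicates passed. The median percentile of the members, 62.7, became 56.3 and 56.6 in the shorter and longer windows, 76.3 by nearest start, 70.5 by peaks per kb and 57.6 with RefSeq models, and 72.5 and 77.9 in the replicates alone; the cause was not tested. Members whose strongest pooled peak was shared by both replicates, 3, were 4 with any overlap, 2 with summits within 100 bp and 2 with replicate peaks among the 5000 strongest. Of rnt-1, elt-1 and egl-18, the summit setting dropped egl-18 and the rank setting dropped elt-1. The 3 of 10 stand beside 35.8% of all genes with a pooled peak (5557 of 15526). No such share is given for the other overlap settings. The share of member peaks with TGATNNAT, 20%, was 10% within 50 bp and 30% within 150 bp, where a longer search can only add matches. It was 0 of 1 in the thresholded list, and 22.7% and 17.8% in the lists of replicate 1 and replicate 2. The share over all peaks is not given at these distances or for the replicate lists, so these values have no background beside them. The RefSeq models, similar windows and q-value settings were chosen after seeing the data.

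No paired analysis was possible because the 2 samples form 1 group. With 2 replicates, an SD rests on 2 values, and unknown depth leaves a missing replicate peak without a detection limit.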
